A study of Mus musculus with 6 samples.

Results

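Aminoacyl-tRNA synthetases are the enzymes that join each amino acid to its matching tRNA. The 37 synthetase genes described here were taken from the deposited table of 21936 genes by symbol alone, as every gene named with the letter of an amino acid followed by "ars", together with Eprs. By the ending of the symbol 20 encode the cytosolic enzymes and 17 the mitochondrial enzymes, whose symbols end in 2. The rule itself uses no measured value, and no other list of synthetases was used. The rule and the related lists below were, however, chosen with earlier results of these data known.

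The libraries come from PAM212, a mouse line that the labels call keratinocyte, grown in DMEM with 10% fetal bovine serum. For 3 libraries the cells had received the mouse gene of the microRNA miR-28-3p by lentivirus, to overexpress it, and 3 control libraries come from PAM212 cells labelled as not treated. The titles of the control libraries read NC, without saying what it stands for. Whether the controls carried an empty vector, and whether the lentiviral cells are 1 clone or a pool, cannot be read from the labels. Nothing in the labels says that the libraries of a group came from separate cultures, so the p-values below measure only the spread between these libraries, which may be technical.

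Each synthetase recognises its own amino acid and tRNA, and the charged tRNA then delivers the residue to the ribosome. Cells keep separate sets for the cytosol, where proteins encoded in the nucleus are made, and for the mitochondrion, which translates a few subunits of the respiratory chain, although the mitochondrial enzymes too are encoded in the nucleus. Gars and Kars each supply both compartments from 1 gene, and mitochondria charge glutamine tRNA by an indirect route that starts with Ears2. In the cytosol 8 of the polypeptides, those of Lars, Iars, Eprs, Mars1, Qars, Rars, Kars and Dars, are held in the multisynthetase complex by 3 scaffold proteins. Uncharged tRNA activates the kinase GCN2, and its downstream factor ATF4 is known to induce many cytosolic synthetase genes through an amino acid response element.

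The microRNA overexpressed in these cells has the following mature form in RefSeq (GRCm38.p6, chromosome 16, plus strand), shown because its seed, in capitals, defines the sites searched in the synthetase transcripts.
mmu-miR-28a-3p: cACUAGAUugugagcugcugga
A perfect match to the seed (bases 2 to 8), ATCTAGT, was sought in the longest annotated 3′ untranslated region of each gene in GENCODE release M21. Of the 37 synthetase genes 2 held it, and 6.72% of the 11679 tested genes with such a region did. Both sites are given with their flanks, the match in capitals.
Aars: tgttagaaatATCTAGTtgtacaaagag
Yars2: ccagtccttcATCTAGTcctcacagcac
The site starts at base 814 of the untranslated region in Aars and at base 1340 in Yars2. These 2 genes moved in opposite directions, as the values below show, and a match is not evidence of binding.

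The promoters of the family carry the second set of sequences that bear on the values. RefSeq promoter windows (GRCm38.p6, 250 bases before to 50 after the start) were matched to 27 of the 37 genes by gene identifier, 13 cytosolic and 14 mitochondrial. They were searched on both strands for TGATGNAA, the core of the amino acid response element, after the fold changes were known. The core stood in the windows of 5 of 13 cytosolic genes and 0 of 14 mitochondrial genes, and in 3.97% of all 32851 promoter windows. Each match is given on the gene's strand with 16 bases on either side, the core in capitals (TTGCATCA and TTTCATCA are the core read on the other strand).
Aars, chr8:111033714-111033753, plus strand: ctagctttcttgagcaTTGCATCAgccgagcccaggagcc
Aars, chr8:111033835-111033874, plus strand: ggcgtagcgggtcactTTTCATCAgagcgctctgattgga
Gars, chr6:55037955-55037994, plus strand: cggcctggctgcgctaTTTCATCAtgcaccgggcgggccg
Iars, chr13:49682121-49682160, plus strand: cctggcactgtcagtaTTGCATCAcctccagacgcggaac
Tars, chr15:11399650-11399689, minus strand: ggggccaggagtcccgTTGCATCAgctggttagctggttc
Yars, chr4:129189890-129189929, plus strand: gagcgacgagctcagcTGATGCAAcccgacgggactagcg
Of these 5 genes Aars and Yars fell and Gars, Iars and Tars rose. The E-box CACGTG, the element bound by MYC, was found in 4 of 13 cytosolic windows (Aars, Farsb, Iars and Tars), in 1 of 14 mitochondrial windows (Ears2) and in 7.15% of all. TGCGCA, which lies within the known element of the factor NRF1, was found in 4 cytosolic windows (Eprs, Gars, Kars and Sars), in 3 mitochondrial windows (Iars2, Mars2 and Rars2) and in 7.76% of all. No match of 1 motif in these windows overlapped a match of another.

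The libraries held between 14309898 and 16383374 counted reads, and the synthetase genes between 75611 and 86435 of them, so that the rarest member still had 84 reads in its lowest library. Averaged over counted reads, gene length was 5091 to 5119 bases in the controls and 6021 to 6050 bases with overexpression. The median log2 fold change ran from -0.78 in the 210 tested genes of up to 1000 bases to 0.48 in the 2180 genes of more than 8000 bases. Each member's change was therefore also computed after removal of that trend, and values that differ in direction or call are given with the members. Of 10 keratinocyte markers 9 were tested, 5 higher and 4 lower, with a summed level of 1159 to 1183 CPM (the reads of a gene as a share of the TMM-scaled library total, the usual CPM unit) in controls and 1477 to 1512 CPM in overexpressing cells. The defining keratin Krt5 was without a count in all 6 libraries. In mean CPM, control to overexpression, Krt14 rose from 30.5 to 39.1, Cdh1 from 382 to 532 and Dsp from 145 to 212. Itga6 rose from 139 to 329 and Sfn from 33.1 to 87.9, while Itgb4 fell from 197 to 141 and Perp from 220 to 152. The other 2 that fell were Krt15, from 1005 summed reads to 0, and the basal factor Trp63, from 53 to 5. Of 8 melanocyte markers, sought because the series' design line names melanocytes, 2 were tested (Pmel and Mitf) and fell. Tyr had 0 counts, and Tyrp1 and Dct had 0 in the controls and 40 and 31 with overexpression. The summed reads of Mlana went from 3 to 9, of Sox10 from 1 to 6 and of Mc1r from 4 to 17. The list summed to between 7.52 and 9.91 CPM over all libraries. None of the 6 immune markers was tested, and of 7 fibroblast markers Pdgfra and Col1a1 were tested and both fell, their list summing to 43.3 to 52.0 CPM in controls and 16.2 to 17.1 CPM in overexpressing cells. Krt15, Trp63, Pmel and Col1a1 passed the low-count filter only through the controls, where they were high. The part of these marker differences in the results below was not tested.

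Measured per length, the cytosolic enzymes were the more abundant set. Levels between genes are compared in FPKM, the deposited value per kilobase of gene and sequenced depth. In the controls the cytosolic genes ran from Sars at 150 ± 2.57 FPKM to Eprs at 17.6 ± 0.0774 FPKM, and the mitochondrial genes from Lars2 at 15.1 ± 0.361 FPKM to Mars2 at 0.558 ± 0.0456 FPKM (SD, n = 3). All 20 cytosolic levels thus lay above all 17 mitochondrial levels. With overexpression the sets met: Cars, the lowest cytosolic enzyme, had 14.5 ± 0.368 FPKM, and Iars2 and Yars2, the highest mitochondrial enzymes, 14.8 ± 0.278 and 14.8 ± 1.15 FPKM. These 3 levels did not differ beyond their spread. The deposited length weighs on such levels, since 9470 of the 11294 bases of Mars2, a gene of 1 exon, are 3′ untranslated region.

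**Figure D1:**
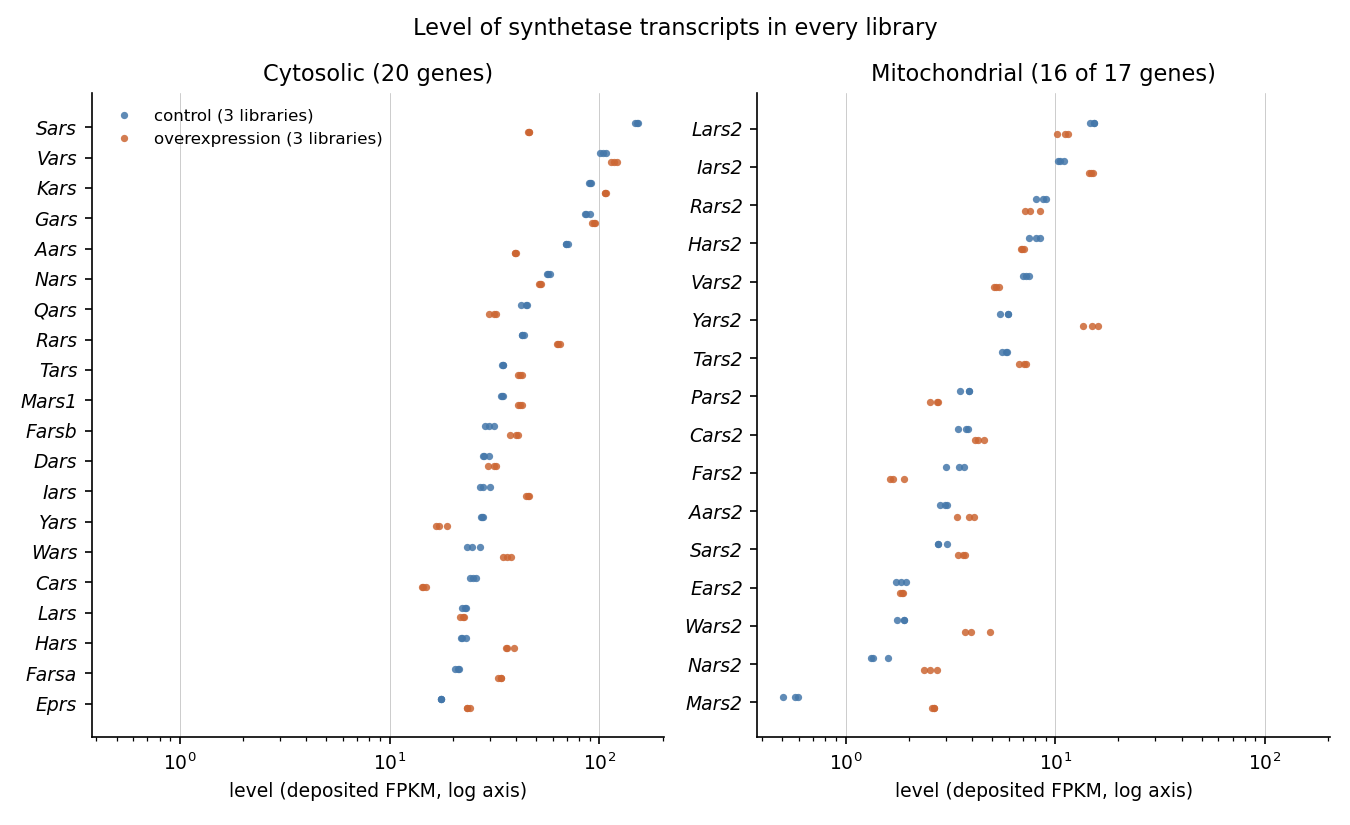
Level of the cytosolic and mitochondrial synthetase transcripts shown in every library, as deposited FPKM on a log axis; each point is 1 library. The controls of Sars sit at 150 FPKM and its overexpression libraries at 46.0 FPKM on average, and Mars2 moves from 0.558 to 2.63 FPKM.

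Summed over the family, the cytosolic enzymes took 0.503 to 0.504% of the counted reads in the controls and 0.464 to 0.467% with overexpression. The mitochondrial enzymes took 0.0553 to 0.0558% and 0.0616 to 0.0630%. Neither range overlapped the other group's. In summed FPKM the cytosolic set went from 961 to 965 in the controls to 934 to 936 with overexpression, and the mitochondrial set from 87.0 to 87.5 to 99.4 to 103. Sars alone made up 15.3 to 15.8% of the cytosolic sum in the controls and 4.88 to 4.96% with overexpression. Without Sars the cytosolic sum was 810 to 817 FPKM in the controls and 888 to 889 FPKM with overexpression, higher rather than lower. These shares and FPKM rest on library totals without TMM, unlike the fold changes below. Kars, for example, went from 90.3 to 106 FPKM on average, and from 391 to 489 CPM with TMM. The small fall of the full cytosolic sum may thus depend on the scaling, and the sums were not computed with TMM.

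The comparison of overexpression with control asks which of these transcripts differ between the 2 states of the line. More members rose than fell, by modest amounts, with a few large exceptions: Sars fell 3.06-fold, and the mitochondrial enzymes Mars2, Yars2 and Wars2 rose more than 2-fold. By edgeR's quasi-likelihood test at an adjusted p under 0.05, 23 of 37 members were higher, 9 lower and 5 not called. Over all 11809 genes tested 42.1% were called higher and 43.9% lower, 4975 and 5184 genes. All 37 passed the filter on low counts. Among the 20 cytosolic enzymes 13 rose, 5 fell and 2 were not called, with a median log2 fold change of 0.29. Among the 17 mitochondrial enzymes 10 rose, 4 fell and 3 were not called, with a median of 0.38. The median over all genes tested was -0.03. The median size of the change, whatever its sign, was 0.46 for the members and 0.72 for all genes. Changes of at least 2-fold were called for 3 members upward and 1 downward, where 14.8% and 21.0% of all genes passed that rule. The groups did not overlap in 32 members, 23 with all overexpression libraries higher and 9 with all lower, against 42.2% and 43.8% of all genes tested.

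The scaling of the libraries matters for the small changes. Upper quartile scaling moved the median of all genes from -0.03 to -0.26, with 3961 genes higher and 6288 lower, and it left 18 members higher and 13 lower. It made the rises of Kars (0.10), Mars1 (0.15), Tars (0.15), Tars2 (0.15), Aars2 (0.23), Farsb (0.26), Eprs (0.29), Iars2 (0.35), Wars (0.40) and Rars (0.43) smaller by more than 1.5 times, and the falls of Lars2 (-0.60), Vars2 (-0.60), Pars2 (-0.63) and Qars (-0.63) larger. Removal of the length trend left 22 higher and 9 lower, and of all 11809 genes tested 5050 higher and 5013 lower. It moved some called changes by more than 1.5 times: Farsb (0.87), Mars1 (0.59), Gars (0.47), Sars2 (0.66), Aars (-1.12) and Lars2 (-0.83) became larger, and Iars2 (0.20), Tars (0.25), Tars2 (0.13) and Vars (0.17) smaller. A test against a change beyond 1.5-fold kept 9 higher and 4 lower, and of all 11809 genes tested 2762 higher and 3185 lower. In the authors' deposited table the same 23 members are higher, 9 lower and 5 not called.

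**Figure D2:**
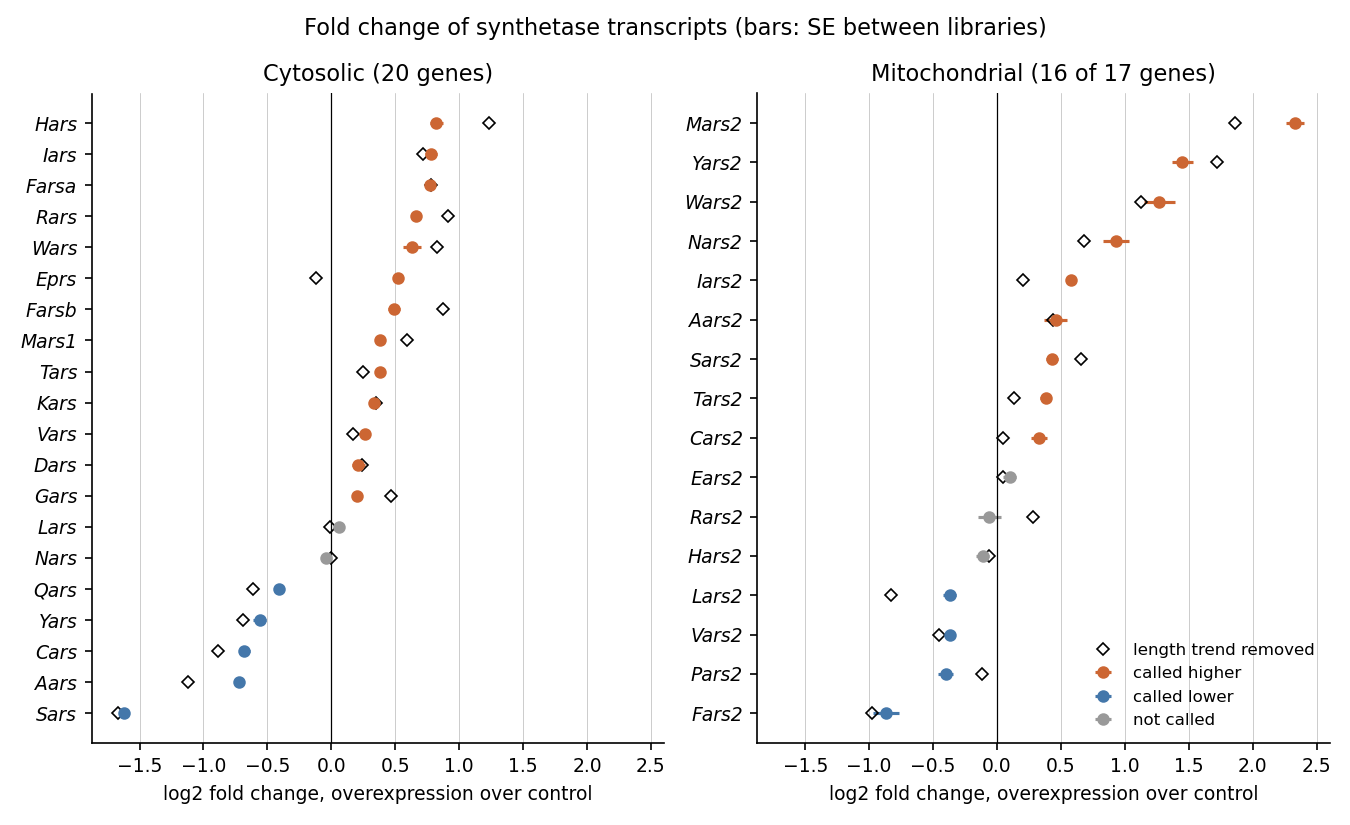
Log2 fold change, overexpression over control, of the synthetase transcripts shown, with the SE between libraries as bars (n = 3 against 3) and the value after removal of the length trend as open diamonds. Sars (-1.62) and Mars2 (2.33) stand at the ends, and only Eprs and Rars2 have a diamond on the other side of 0 that is called.

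Among the cytosolic enzymes Sars, the seryl-tRNA synthetase (ENSMUSG00000068739, chromosome 3, 108424865 to 108445209, minus strand), showed the largest change. It had 734, 761 and 754 CPM in controls and 245, 242 and 247 CPM in overexpressing cells. All 3 overexpression libraries were low and the groups lay far apart. That is a 3.06-fold fall, a log2 fold change of -1.62 ± 0.02 (SE between libraries, edgeR adjusted p = 6.46e-54). From the highest synthetase in the controls Sars moved to 46.0 ± 0.42 FPKM, below Vars, Kars, Gars, Rars and Nars, which stood at 117, 106, 93.9, 63.8 and 52.0 FPKM with overexpression.

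Aars, the alanyl enzyme (ENSMUSG00000031960, chromosome 8, 111033144 to 111057664, plus strand), had 634, 623 and 625 CPM in controls and 383, 381 and 380 CPM in overexpressing cells. It fell 1.65-fold (log2 -0.72 ± 0.01, edgeR adjusted p = 1.7e-36), with no overlap. This is the gene with both the microRNA seed match and a pair of response cores, and 14.3% of its exon bases are shared on the same strand with Exosc6, so part of its reads may have been dropped or counted there. Cars, the cysteinyl enzyme, had 153, 164 and 160 CPM against 96.3, 101 and 99.1 CPM, a 1.61-fold fall (log2 -0.68 ± 0.04). Yars, the tyrosyl enzyme, had 156, 161 and 158 CPM against 115, 106 and 102 CPM, a 1.47-fold fall (log2 -0.56 ± 0.05). In both genes every overexpression library was below every control, and their edgeR adjusted p values were 7.82e-25 and 1.69e-20. The fifth cytosolic enzyme that fell was Qars, the glutaminyl enzyme of the complex, from 280 ± 7.87 to 212 ± 8.0 CPM (SD, n = 3, log2 -0.41).

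The 4 largest cytosolic rises were those of Hars, Iars, Farsa and Rars. Their order depends on the length trend: with it removed Hars stood at 1.23, Rars at 0.91, Farsb at 0.87 and Wars at 0.83, above Farsa (0.78) and Iars (0.72). Hars, the histidyl enzyme, had 51.9, 52.7 and 54.9 CPM in controls and 91.3, 90.8 and 99.4 CPM in overexpressing cells, a 1.77-fold rise (log2 0.82 ± 0.05, edgeR adjusted p = 5.92e-23). Iars, the isoleucyl enzyme, had 154, 138 and 142 CPM against 251, 243 and 249 CPM, a 1.71-fold rise (log2 0.78 ± 0.05). Farsa, the alpha subunit of the phenylalanyl enzyme, had 92.5, 90.6 and 93.9 CPM against 159, 155 and 159 CPM, a 1.70-fold rise (log2 0.77 ± 0.02). In each of these genes the groups were clearly separate, with every overexpression library high. Rars, the arginyl enzyme, had 133, 137 and 133 CPM against 211, 211 and 216 CPM, a 1.58-fold rise (log2 0.66 ± 0.02), and its groups did not overlap either. The edgeR adjusted p values of Iars, Farsa and Rars were 1.68e-30, 1.93e-27 and 2.25e-27. Farsb, which encodes the beta subunit that pairs with Farsa, rose from 76.0 ± 3.83 to 107 ± 4.49 CPM (SD, n = 3, log2 0.49 ± 0.05). Farsb shares 9.47% of its exon bases with Sgpp2 on the opposite strand.

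Wars, the tryptophanyl enzyme and a gene known to be induced by interferon gamma, had 90.1, 78.1 and 83.0 CPM in controls and 129, 124 and 136 CPM in overexpressing cells. It rose 1.55-fold (log2 0.63 ± 0.07, edgeR adjusted p = 3.62e-20), with every overexpression library above every control. Eprs, which carries the glutamyl and prolyl activities in 1 chain (chromosome 1, 185363044 to 185428360, plus strand), had 306, 309 and 310 CPM against 449, 438 and 438 CPM, a rise of 1.43-fold (log2 0.52 ± 0.01, edgeR adjusted p = 5.79e-28). Its call depends on the processing. Eprs has the longest deposited length of the family, 18102 bases, and after removal of the length trend it stood at -0.12, called lower (edgeR adjusted p = 6.74e-06).

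Both enzymes that serve cytosol and mitochondrion rose slightly. Gars, the glycyl enzyme, had 271, 262 and 259 CPM in controls and 298, 303 and 307 CPM in overexpressing cells (log2 0.20 ± 0.02, edgeR adjusted p = 1.4e-09). Kars, the lysyl enzyme, had 394, 390 and 388 CPM against 488, 487 and 492 CPM (log2 0.33 ± 0.01, edgeR adjusted p = 2.53e-19). No library of 1 group reached the other in either gene. With upper quartile scaling Gars stood at -0.03, not called, and Kars at 0.10, still called higher.

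Of the remaining cytosolic enzymes, the methionyl enzyme Mars1 rose from 114 ± 1.22 to 148 ± 3.17 CPM and the threonyl enzyme Tars from 197 ± 2.0 to 256 ± 6.63 CPM (SD, n = 3), both with a log2 fold change of 0.38. Vars, the valyl enzyme, rose from 567 ± 17.3 to 680 ± 19.7 CPM and Dars, the aspartyl enzyme, from 121 ± 3.65 to 140 ± 6.62 CPM. With upper quartile scaling the call was lost for Vars (0.03) and Dars turned to -0.02, not called. Mars1 shares 1.99% of its exon bases with Ddit3 on the opposite strand, a gene that fell 9.44-fold. Lars, the leucyl enzyme, had 115, 119 and 121 CPM against 124, 120 and 126 CPM (log2 0.06 ± 0.03, edgeR adjusted p = 0.141). Nars, the asparaginyl enzyme, had 237, 242 and 246 CPM against 234, 232 and 237 CPM (log2 -0.04 ± 0.02, edgeR adjusted p = 0.153). The groups of both overlapped and neither was called. Nars was called lower under 6 of the alternatives, among them upper quartile scaling (-0.27), and Lars with that scaling stood at -0.17, called lower. After removal of the length trend Lars stood at -0.01, not called.

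Grouped by assembly, 6 of the 8 enzymes of the multisynthetase complex rose (Iars, Rars, Eprs, Mars1, Kars and Dars), Qars fell and Lars was not called, with a median of 0.35 (log2 fold change) spanning -0.41 to 0.78. Over all genes tested 42.1% were called higher and 43.9% lower, and of these 6 the call on Eprs turned to lower after removal of the length trend (-0.12) and that on Dars was lost with upper quartile scaling (-0.02). Of the 12 cytosolic enzymes outside it 7 rose, 4 fell and 1 was not called, with a median of 0.23 and a range from -1.62 to 0.82. All genes tested had a median of -0.03, and no difference between these groupings was tested.

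Among the mitochondrial enzymes Mars2, the methionyl enzyme (ENSMUSG00000046994, chromosome 1, 55237177 to 55248470, plus strand), rose most. It had 6.28, 5.54 and 6.48 CPM in controls and 30.9, 30.2 and 31.0 CPM in overexpressing cells. The 2 sets of 3 libraries were tight and far apart, a 5.02-fold rise (log2 2.33 ± 0.07, edgeR adjusted p = 1.72e-29), which was 1.86 after removal of the length trend. Yars2, the tyrosyl enzyme (chromosome 16, 16302965 to 16309640, plus strand) and the other gene with a seed match, had 16.5, 18.2 and 18.2 CPM against 44.3, 48.3 and 51.9 CPM, a 2.74-fold rise (log2 1.45 ± 0.08, edgeR adjusted p = 2.91e-26). Wars2, the tryptophanyl enzyme, had 10.9, 10.2 and 11 CPM against 29.9, 24.4 and 22.9 CPM, a 2.40-fold rise (log2 1.27 ± 0.12, edgeR adjusted p = 1.4e-17). Its overexpression libraries spread more than its controls, but all lay above them. Nars2, the asparaginyl enzyme, had 10.7, 8.90 and 9.15 CPM against 16.9, 19.7 and 18.2 CPM, a 1.91-fold rise (log2 0.93 ± 0.10, edgeR adjusted p = 1.58e-11), again without overlap.

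Smaller rises were called for Iars2, Aars2, Sars2, Tars2 and Cars2. Iars2, the isoleucyl enzyme, rose from 91.1 ± 3.55 to 136 ± 2.35 CPM (SD, n = 3, log2 0.58). Of the exon bases of Iars2, 22.9% are shared with Rab3gap2 on the opposite strand, and without a strand setting reads there cannot be told apart. Aars2, the alanyl enzyme, rose from 13.6 ± 0.487 to 18.7 ± 1.81 CPM and Sars2, the seryl enzyme, from 9.16 ± 0.504 to 12.3 ± 0.458 CPM. Tars2, the threonyl enzyme, rose from 38.7 ± 1.20 to 50.4 ± 2.04 CPM and Cars2, the cysteinyl enzyme, from 25.7 ± 1.44 to 32.4 ± 1.74 CPM. Cars2 shares 5.83% of its exon bases with Naxd on the opposite strand. The call on Cars2 was lost after removal of the length trend (0.05, edgeR adjusted p = 0.494) and with upper quartile scaling (0.10, edgeR adjusted p = 0.184), and that on Sars2 with upper quartile scaling (0.20, edgeR adjusted p = 0.112).

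Fars2, the mitochondrial phenylalanyl enzyme, fell most of its set. It had 20.5, 19.3 and 16.9 CPM in controls and 9.66, 11.2 and 10.0 CPM in overexpressing cells, a 1.83-fold fall (log2 -0.87 ± 0.10, edgeR adjusted p = 6.95e-11) with no overlap. Its cytosolic counterparts Farsa and Farsb rose. On the opposite strand Fars2 shares 8.72% of its exon bases with Nrn1. Lars2, the leucyl enzyme and the most abundant mitochondrial synthetase in the controls, had 157, 164 and 164 CPM against 127, 117 and 132 CPM (log2 -0.37 ± 0.05, edgeR adjusted p = 1.34e-13). With its deposited length of 11089 bases it stood at -0.83 after removal of the length trend. Vars2, the valyl enzyme, had 38.4, 37.0 and 39.8 CPM against 28.8, 29.6 and 30.6 CPM (log2 -0.37 ± 0.04, edgeR adjusted p = 1.54e-06). Pars2, the prolyl enzyme, had 10.6, 11.7 and 11.6 CPM against 8.08, 8.84 and 8.72 CPM (log2 -0.40 ± 0.06, edgeR adjusted p = 0.00267). In all 4 genes every overexpression library was lower than every control. Pars2 lost its call after removal of the length trend (-0.12, edgeR adjusted p = 0.345).

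Not called were the remaining 3 mitochondrial enzymes. Hars2, the histidyl enzyme, had 34.8, 31.1 and 33.7 CPM in controls and 30.2, 30.6 and 31.3 CPM in overexpressing cells (log2 -0.11 ± 0.05, edgeR adjusted p = 0.122). Rars2, the arginyl enzyme, had 24.2, 23.5 and 21.8 CPM against 20.4, 21.7 and 24.4 CPM (log2 -0.06 ± 0.09, edgeR adjusted p = 0.506). Ears2, the glutamyl enzyme, had 8.67, 9.76 and 9.21 CPM against 9.66, 9.97 and 9.92 CPM (log2 0.10 ± 0.05, edgeR adjusted p = 0.464). The groups overlapped in each. Rars2 was called in opposite directions by 2 alternatives, higher after removal of the length trend (0.28, edgeR adjusted p = 0.0022) and lower with upper quartile scaling (-0.29, edgeR adjusted p = 0.00162), and Hars2 was called lower under 6 alternatives, among them that scaling (-0.34). Ears2 with that scaling stood at -0.13, not called. Hars and Hars2 lie head to head on chromosome 18, and 195 exon bases belong to both genes, 7.97% of Hars and 4.56% of Hars2.

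**Figure D3:**
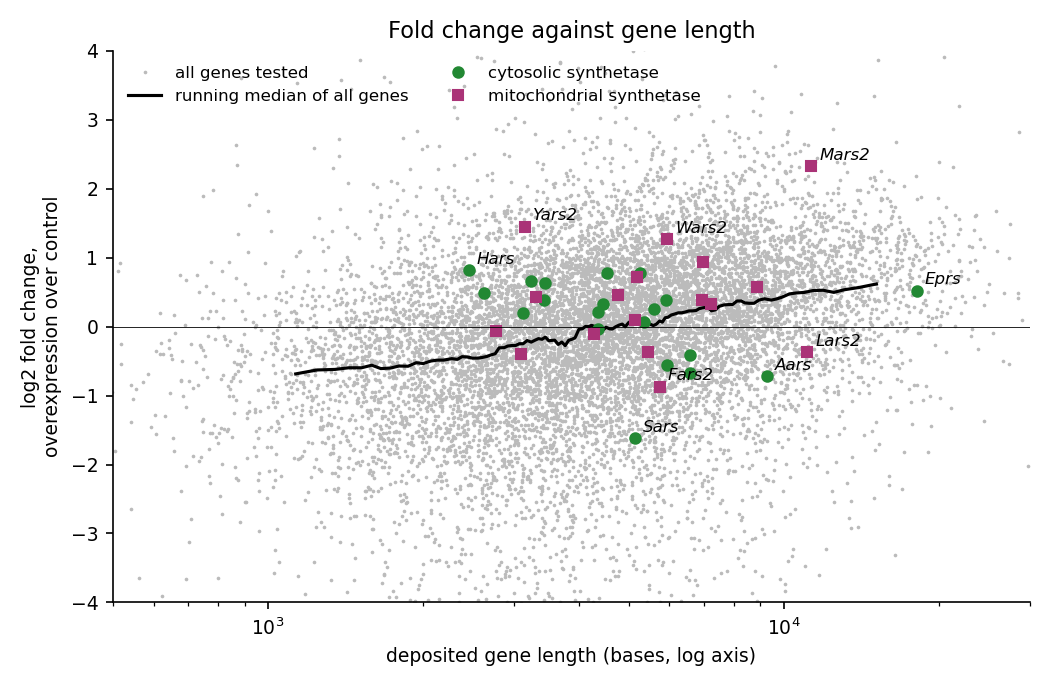
Log2 fold change against deposited gene length for all genes tested (grey; 293 lie outside the axes) and the 37 synthetase genes, with a running median of all genes over windows of 600 genes. The running median rises with length, and Mars2 and Yars2 lie above it and Sars, Aars, Lars2 and Fars2 below it.

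Across amino acids the balance between the 2 enzymes moved in both directions. The ratio of the cytosolic to the mitochondrial enzyme within a library does not depend on how libraries are scaled against each other. It was formed as a log2 ratio of FPKM for 15 mitochondrial enzymes with a single cytosolic partner, Eprs serving for both Ears2 and Pars2. In 7 pairs every overexpression library lay below every control, in 7 above, and in 1 the groups overlapped. Over all genes tested 86.0% had single-gene levels that did not overlap. The share among ratios of other gene pairs was not computed, so these counts are not a result particular to the synthetases. An exact permutation test of 3 against 3 libraries cannot go below p = 0.1, so none is given for a pair.

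The ratio of Sars to Sars2 was 5.60, 5.78 and 5.78 in the controls and 3.66, 3.72 and 3.65 with overexpression, and both enzymes contributed, Sars falling and Sars2 rising. Yars to Yars2 went from 2.32, 2.23 and 2.21 to 0.46, 0.21 and 0.06, so that the tyrosyl transcripts, well apart in the controls, came close to equal levels per length. Mars1 to Mars2 went from 5.92, 6.09 and 5.85 to 3.98, 4.05 and 3.95, although both rose. Aars, Cars, Nars and Wars completed the 7 pairs that shifted toward the mitochondrial enzyme, by -1.18, -1.02, -0.98 and -0.63 on the log2 scale. At the other end Hars to Hars2 went from 1.38, 1.57 and 1.51 to 2.40, 2.38 and 2.47. Rars, Vars, Lars and Iars shifted the same way by 0.73, 0.64, 0.43 and 0.20. Eprs shifted by 0.92 against Pars2 and by 0.42 against Ears2, which became 0.00 and -0.17 after removal of the length trend. That removal also moved Iars to 0.52, Lars to 0.82, Wars to -0.30 and Mars1 to -1.27. The threonyl pair had 2.53, 2.57 and 2.64 in the controls and 2.60, 2.57 and 2.56 with overexpression, and its groups overlapped. In 6 pairs the 2 enzymes were called in opposite directions, in 4 in the same direction, and in 5 at least 1 was not called. Of all genes tested 42.1% were called higher and 43.9% lower.

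**Figure D4:**
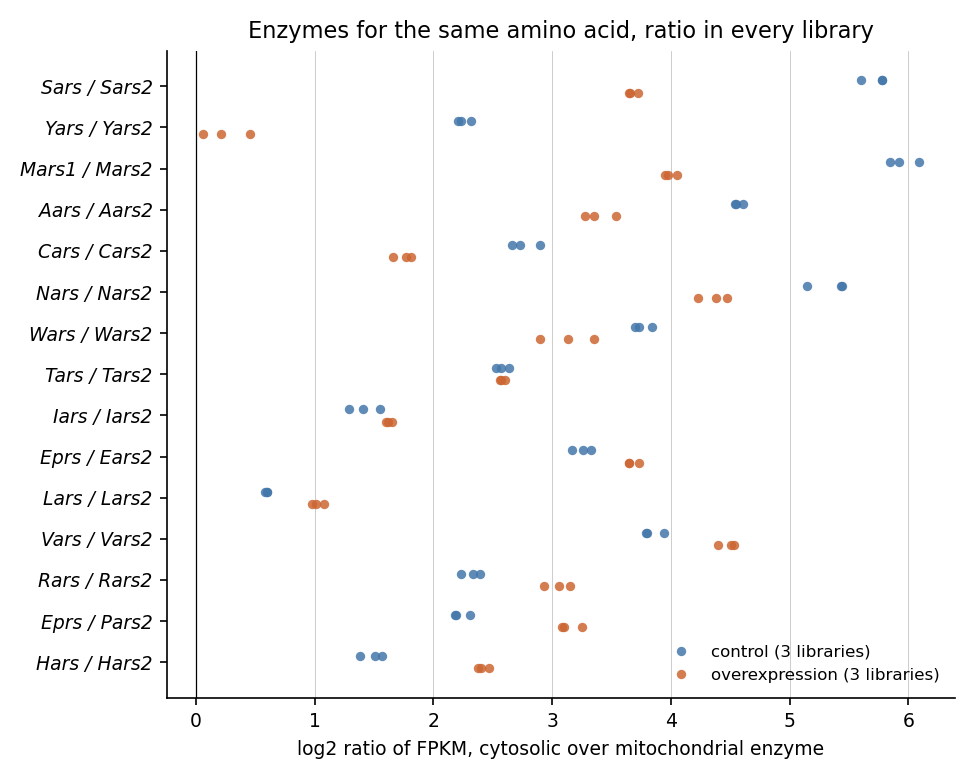
Log2 ratio of deposited FPKM, cytosolic over mitochondrial enzyme, for 15 pairs that charge the same amino acid; each point is 1 library. The overexpression points lie left of the controls in 7 pairs, right of them in 7, and among them in the threonyl pair.

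The scaffolds of the multisynthetase complex moved by more than most of the enzymes they hold. Aimp1, a scaffold that also has secreted cytokine forms, fell 2.20-fold, from 224 ± 7.76 to 102 ± 2.87 CPM (SD, n = 3, log2 -1.14, edgeR adjusted p = 9.09e-38). Aimp2 rose 3.01-fold, from 16.1 ± 0.494 to 48.5 ± 2.76 CPM (log2 1.59), and Eef1e1, the third scaffold, 2.37-fold, from 26.4 ± 1.74 to 62.5 ± 2.06 CPM (log2 1.24). Their groups did not overlap, as was so for 86.0% of all genes tested.

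Genes of the indirect glutamine route in mitochondria, which turns glutamate on the tRNA into glutamine, were also mixed. Qrsl1, the catalytic subunit, rose from 9.35 ± 0.817 to 17.7 ± 2.19 CPM and Gatc from 22.2 ± 1.01 to 31.5 ± 2.13 CPM, while Gatb fell from 13.6 ± 0.837 to 10.7 ± 0.804 CPM (SD, n = 3). Mtfmt, which formylates the initiator methionine tRNA charged by Mars2, had 18.5 ± 0.887 and 20.2 ± 0.868 CPM and was not called (edgeR adjusted p = 0.176). Among 7 editing factors and synthetase-like genes 3 rose, 2 fell and 2 were not called, with a median of 0.04. The shares over all genes tested were 42.1% higher and 43.9% lower. Tarsl2, a second threonyl enzyme outside the symbol rule, rose 3.45-fold from 8.42 ± 0.586 to 29.1 ± 2.81 CPM, more than Tars. Dtd2, which removes mischarged D-amino acids and alanine from tRNA, fell 2.17-fold to 13.1 ± 0.580 CPM. Pstk, of the selenocysteine route, fell 1.40-fold. Aarsd1, a free editing domain related to that of the alanyl enzymes, rose from 0.234 ± 0.0693 to 0.872 ± 0.181 CPM on 11 and 39 summed counts. It passed the low-count filter only through the overexpression libraries, where it is high, so its call among the 3 rises is not taken as support.

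In the list of tRNA maturation and export genes 18 of 32 rose, 4 fell and 10 were not called, with a median log2 fold change of 0.34, where 42.1% of all genes tested were called higher and 43.9% lower. Nsun2, a tRNA methyltransferase, rose 2.82-fold from 117 ± 3.47 to 331 ± 6.59 CPM (SD, n = 3), Pop1, a subunit of RNase P, 4.57-fold, Pus7, a pseudouridine synthase, 2.37-fold, and Xpot, which exports tRNA from the nucleus, 1.91-fold. In the list of mitochondrial translation factors and tRNA modification 5 of 15 rose, 6 fell and 4 were not called (median -0.08), near the shares over all genes tested of 42.1% and 43.9%. Gfm1, a mitochondrial elongation factor, rose 3.10-fold from 47.6 ± 1.91 to 147 ± 0.153 CPM, and Trmt10c, of mitochondrial RNase P, 1.96-fold. Hsd17b10, a partner of Trmt10c, fell 1.97-fold, and Mrrf, the recycling factor, 1.93-fold. With upper quartile scaling 9 genes of the first list and 10 of the second fell, where 6288 of all 11809 genes tested were lower.

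In the list of uncharged tRNA sensing and ATF4 response 5 of 16 genes rose and 11 fell, with a median of -1.04, against 42.1% higher and 43.9% lower over all genes tested. Gcn1, which helps to activate GCN2, rose 2.49-fold from 179 ± 4.29 to 446 ± 7.29 CPM (SD, n = 3, log2 1.32). Its deposited length is 17815 bases, and in the longest genes the running median of all genes reached 0.618. Changes of the related genes are given without removal of the length trend. Trib3, Ddit3 and Slc7a11, which are induced by ATF4, fell 16.4-fold, 9.44-fold and 7.50-fold. Some further members are named here after their values were seen. Eif2ak4, which encodes GCN2, rose 1.95-fold and its inhibitor Impact 2.06-fold. Atf4 itself fell 1.39-fold, from 313 ± 7.91 to 224 ± 6.68 CPM (log2 -0.48), and Asns, the asparagine synthetase, 1.57-fold. Near the 2358 bases of Atf4 the running median of all genes was -0.475 (at 2328 bases) and -0.436 (at 2378 bases). The fall of Atf4 was thus about that of other genes of its length. The other 2 genes of the list that rose were Phgdh (1.61-fold) and Psat1 (1.19-fold), enzymes of serine synthesis. Both stand in the list for the ATF4 response, so not all of its response genes fell. The rise of Psat1 (log2 0.25) is close in size to the move of the median of all genes with upper quartile scaling, from -0.03 to -0.26. Beside these values, 13 of the 20 cytosolic synthetases rose, and the 5 genes with a response core in the promoter window had log2 fold changes of -0.72 (Aars), -0.56 (Yars), 0.20 (Gars), 0.38 (Tars) and 0.78 (Iars).

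**Figure D5:**
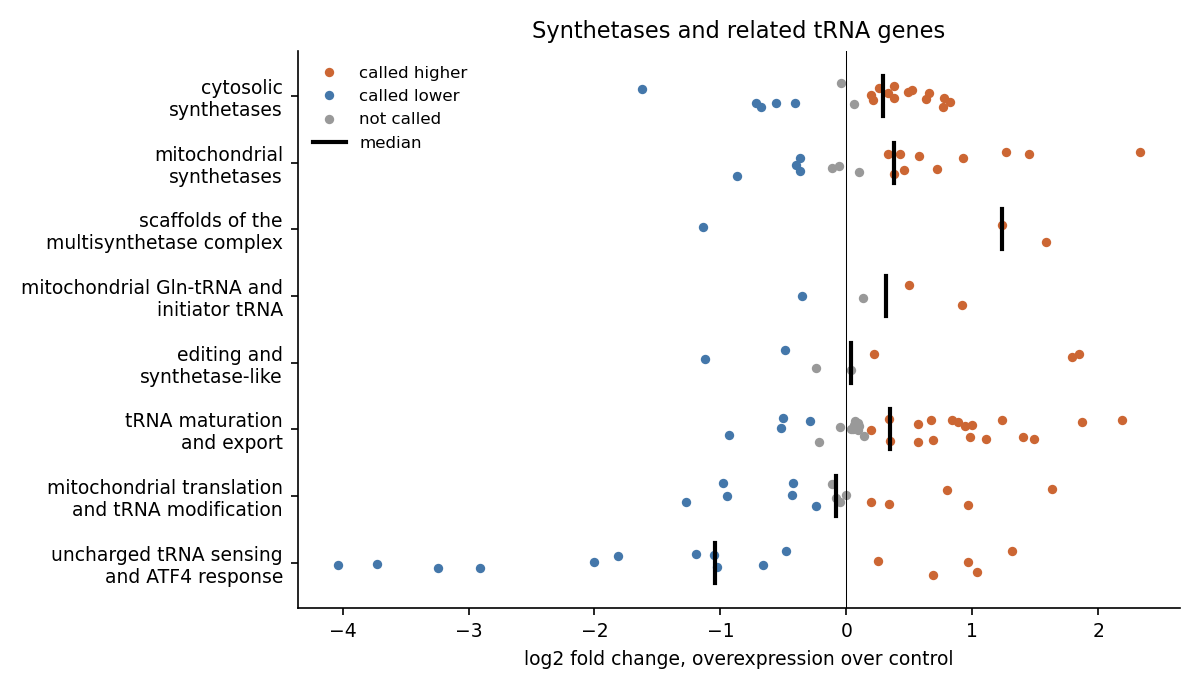
Log2 fold change, overexpression over control, of the synthetases and of 6 lists of related genes; each point is 1 tested gene, coloured by its edgeR call, and the bar is the median. The cytosolic and mitochondrial medians are 0.29 and 0.38, and that of the list of uncharged tRNA sensing and ATF4 response is -1.04.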

How the data were processed

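Messenger RNA was profiled in 6 PAM212 libraries (TruSeq, polyadenylated RNA, per the labels' protocols). The authors deposited raw read counts per gene and FPKM values, per the file headers, and 100.0% of nonzero FPKM values equalled the count over deposited length and column total to within 0.001%. The submitters' processing notes name HISAT2, HTSeq, DESeq and mm9. All 37 members have the coordinates of GENCODE M21 for GRCm38, which is used here. No source used here gives the strand setting. Counts were compared in edgeR 4.0.16 (R 4.3.3): filterByExpr with a minimum count of 10 (11809 genes), TMM, robust quasi-likelihood F test, Benjamini-Hochberg adjusted p under 0.05. The SE of a log2 fold change is computed from the SD of log2 CPM in the 2 groups. Related lists were matched by symbol. The authors' deposited table holds log2 fold changes and p-values (adjusted). limma 3.58.1 and DESeq2 1.42.0 served as alternatives. The edgeR fit, with and without removal of the length trend, DESeq2 and limma on FPKM were tested on simulated data. The other settings were not. The simulation changed a small part of the genes and held no length trend, so it does not bear on the scaling of these libraries. Length trends were removed with a lowess curve per library (span 0.3).

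Replicate numbers did not pair the libraries. The members and lists were chosen with earlier results of these data known. The members are named except 1, which is not reported here by itself. Values per library are given for the 4 largest called rises and falls of each compartment, for Gars, Kars, Eprs and Wars and for members not called. Up to 4 genes per related list, those with the smallest p, are named, and all of the scaffold and glutamine route lists. In the uncharged tRNA list 6 more were chosen after their values were seen.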

Additional observations from a re-analysis of the deposited data

How the results depend on the processing

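No member's call changed under size factors of the DESeq2 type, in DESeq2, without the low-count filter, with the replicate block, or when any 1 of the 6 libraries was left out. Leaving out 1 library gave 23 members higher and 9 lower each time. Same-numbered libraries did not deviate together (correlations of deviations -0.00, 0.01 and -0.03 over 11809 genes), not every library correlated best with its own number, and the fit with the replicate block gave 23 members higher, 9 lower and 10116 genes called in all. A test against a change beyond 1.5-fold left 9 members higher, 4 lower and 5947 genes in all, since it asks for a larger change. The cytosolic median of 0.29 became 0.06 with upper quartile scaling, 0.31 without the filter, 0.25 with at least 50 counts in 3 libraries and 0.25 after removal of the length trend. In FPKM it was 0.20 with a pseudocount of 1 or 0.1, 0.19 with 5, and 0.20 without a filter. The mitochondrial median of 0.38 became 0.15 with upper quartile scaling and 0.20 without the length trend, and in FPKM 0.25, 0.28, 0.13 and 0.25 in the same order. Reversed values were those of Dars (-0.02), Gars (-0.03) and Lars (-0.17) with upper quartile scaling and of Eprs (-0.12) and Rars2 (0.28) after removal of the length trend; the cause was not tested. Ears2 (-0.13 with upper quartile scaling) and Lars (-0.01 without the length trend) also crossed 0, called neither there nor in the reported fit. Mars2, Pars2, Fars2 and Ears2 had the fewest reads in their lowest libraries (84, 112, 134 and 134).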
